A study of Rattus norvegicus with 9 samples.

Results

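The genes described here fold, modify, export, trim and cross-link collagen. They were chosen by symbol from a list of 39 genes: prolyl and lysyl hydroxylases, collagen glycosyltransferases, endoplasmic reticulum (ER) chaperones, export factors, propeptide proteases and lysyl oxidases. Of these, 36 had a row in the deposited table of 18924 genes, and all 36 passed the filter on low counts that left 13856 genes for testing. The symbols Crtap, Mia3 and Pcolce2 were not matched in the table, so their expression is not analysed here. The cells were primary rat chondrocytes (strain SD), which make and maintain cartilage matrix, used at passage 1 or 2 after growth in DMEM with 10% FBS. Poly-A RNA was sequenced from 3 groups of 3 libraries after 24 h. One group received rat plasma with thrombin and an inhibitor (RPTi), one rat plasma with thrombin (RPT) and one rat plasma alone (RP), so plasma was common to all. No group received the inhibitor without thrombin, so an effect of the inhibitor itself cannot be told apart. The labels do not name the inhibitor, give no dose, and leave unstated whether replicates were different animals or cultures. The p-values below therefore measure the spread between these libraries, which may be technical. The design text of the series asks how thrombin regulates chondrocyte function.

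Collagen chains enter the ER as procollagen. There, prolyl 4-hydroxylation stabilises the triple helix, lysyl hydroxylation and glycosylation prepare the later cross-links, and the chaperone HSP47 and several peptidyl-prolyl isomerases hold and fold the helix. Enlarged COPII carriers export the folded molecule, proteases of the BMP1 and ADAMTS families cut off its ends, and lysyl oxidases start the covalent cross-links of the fibril. In cartilage the main load on this route is type II collagen.

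With thrombin, 19 of the 36 genes fell and 4 rose relative to plasma alone, beside 15.2% of all tested genes that fell and 13.6% that rose. The falls took in all 5 genes grouped here as chaperones and isomerases (Serpinh1, Fkbp7, Fkbp9, Fkbp10 and Fkbp14). They also took in all 4 export and retrieval genes among the 36 and all 5 genes of propeptide removal. Ppib, an isomerase gene grouped with the prolyl 3-hydroxylases, and P4hb, grouped with the prolyl 4-hydroxylases, did not pass with thrombin. With the inhibitor added, 29 of the 36 were higher than with thrombin alone and 2 (P4ha3 and Loxl3) were lower, beside 20.4% of all tested genes that rose and 21.1% that fell. Against plasma alone, 25 were higher with thrombin plus inhibitor and 2 (Loxl1 and Loxl3) were lower, beside 11.9% and 12.3% of all tested genes. The prolyl hydroxylases and lysyl oxidases were mixed: P4ha2, P4ha3, P3h2 and Lox were the 4 that rose with thrombin. Each group serves in 2 of the 3 comparisons, so their values are given side by side and are not independent of each other.

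Promoter sequences are shown for 4 genes: Serpinh1, Creb3l2, Sec23a and Kdelr3. They are some of the genes of the ER and export steps that fell with thrombin and were higher with the inhibitor. Creb3l2 encodes an ER-anchored transcription factor, known in mouse chondrocytes to activate Sec23a, and factors of this family bind sites built around the letters TGACGT. The letters GAANNTTC are the inner part of a heat shock element. RefSeq promoters on build GRCr8 (250 bases before to 50 after the annotated start) were found for 32 of the 39 symbols (Crtap and Mia3 among them), and are printed 5′ to 3′ on the strand of the gene, with TGACGT and GAANNTTC on either strand in capitals.
Serpinh1, chr1:163062927-163063226, minus strand: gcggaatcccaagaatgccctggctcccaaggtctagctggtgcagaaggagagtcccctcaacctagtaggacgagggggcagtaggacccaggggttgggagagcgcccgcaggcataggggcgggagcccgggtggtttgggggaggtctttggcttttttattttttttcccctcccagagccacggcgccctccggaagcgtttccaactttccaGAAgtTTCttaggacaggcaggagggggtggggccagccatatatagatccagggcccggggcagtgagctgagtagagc
Creb3l2, chr4:66990783-66991082, minus strand: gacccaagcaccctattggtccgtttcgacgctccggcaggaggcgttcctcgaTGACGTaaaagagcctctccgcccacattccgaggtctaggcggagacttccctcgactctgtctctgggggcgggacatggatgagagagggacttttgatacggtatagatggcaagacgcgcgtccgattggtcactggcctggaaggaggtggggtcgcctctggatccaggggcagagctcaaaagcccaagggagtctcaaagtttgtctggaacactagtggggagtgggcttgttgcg
Sec23a, chr6:82440855-82441154, minus strand: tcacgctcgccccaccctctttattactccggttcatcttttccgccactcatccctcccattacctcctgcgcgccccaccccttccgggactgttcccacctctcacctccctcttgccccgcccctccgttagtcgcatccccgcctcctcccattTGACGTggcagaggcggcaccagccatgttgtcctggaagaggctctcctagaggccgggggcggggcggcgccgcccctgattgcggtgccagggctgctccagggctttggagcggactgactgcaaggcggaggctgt
Kdelr3, chr7:112959382-112959681, plus strand: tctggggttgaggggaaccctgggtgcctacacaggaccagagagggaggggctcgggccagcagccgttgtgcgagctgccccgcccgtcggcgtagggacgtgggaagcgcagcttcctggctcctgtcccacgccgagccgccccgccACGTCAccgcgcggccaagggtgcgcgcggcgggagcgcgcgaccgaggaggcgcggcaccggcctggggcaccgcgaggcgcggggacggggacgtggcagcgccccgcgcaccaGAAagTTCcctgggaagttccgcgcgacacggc

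TGACGT lay in 6 of the 32 promoters (18.8%), those of Fkbp7, Mia3, Sec23a, Kdelr3, Creb3l2 and Adamts3, and in 7.94% of all 33469 RefSeq promoters of the same length. GAANNTTC lay in 8 of the 32 (25%), against 8.59% of all promoters, and stood in the Serpinh1 promoter 30 bases before the start. The shorter core ACGTG, which can overlap TGACGT by 4 letters and is also the core of hypoxia response sites, lay in 10 of the 32 (31.2%), against 19.3% of all promoters. All 4 promoters printed hold a match marked in capitals. Other genes that changed the same way are not printed, among them Fkbp7 and Fkbp14, with such a match, and Fkbp9, with none. These matches are descriptions of letters and were not tested as sites.

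Library totals ranged from 31877265 to 43962783 counts. Defining chondrocyte markers were abundant in every library: Col2a1 was at 3370 to 9040 FPKM (the authors' unit, scaled to gene length and library size) and Acan at 688 to 2360 FPKM. All 10 chondrocyte markers fell with thrombin and all 10 rose with the inhibitor, and their summed level was 14600 to 15820 FPKM in RPTi, 6029 to 6476 in RPT and 9887 to 10050 in RP. Fibroblast-type markers summed to 3007 to 3277 FPKM in RPTi, 2064 to 2223 in RPT and 3172 to 3391 in RP, with 4 of 5 falling with thrombin, and 3 rising and 2 falling with the inhibitor. Of 3 tested macrophage markers 2 rose and 1 fell with thrombin, with the 5 measured ones summing to 14.2 to 16.8 FPKM in RPTi, 27.3 to 28.6 in RPT and 14.1 to 16.5 in RP. Most of that sum was the single gene Cd14, at 12.58 to 14.69 FPKM in RPTi, 23.54 to 24.69 in RPT and 11.55 to 13.7 in RP. The macrophage and leukocyte genes Adgre1 and Ptprc had at most 5 and 4 counts in any library, and the endothelial gene Cdh5 at most 2. The part of these markers in the results below was not tested, and in bulk RNA fewer cells of a type and less RNA per cell cannot be told apart.

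Levels of the 36 genes spanned a wide range. Serpinh1 was the most abundant at 2411 ± 23.2 FPKM in RPTi, 1311 ± 42.7 in RPT and 1698 ± 57.2 in RP (SD, n = 3). P4hb came next, averaging 726 FPKM over all libraries, followed by Pcolce (340.3), Fkbp10 (305) and Ppib (301). The N-proteinase genes Adamts2 and Adamts3 had the lowest averages over all libraries, at 3.19 and 3.07 FPKM, below the ER channel gene Tmem38b (4.24) and Adamts14 (5.13). Within RPT and RP, Adamts14 was instead the lowest, at 1.62 FPKM in RPT and 2.83 FPKM in RP. Adamts3 was close to it there, at 1.85 FPKM in RPT and 2.84 FPKM in RP. Neighbours in the order over all libraries often lay within their spread: P4ha1 averaged 285 FPKM and Loxl2 282 FPKM. The 36 genes together took 1.90% to 1.91% of all counts in RPTi, 1.39% to 1.43% in RPT and 1.59% to 1.61% in RP.

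The median log2 fold change for RPT against RP was -0.22 over the 36 genes and -0.00 over all tested genes, and the fitted changes of the 36 ran from -0.83 to 0.57. For RPTi against RPT the medians were 0.47 over the 36 genes and -0.01 over all, and for RPTi against RP 0.29 and -0.01. Scaling by library totals alone lowered the rising share of all called genes to 38.4% for RPTi against RPT (49.2% with TMM). For RPTi against RP it lowered that share to 36.6% (49.1% with TMM). On that scale 28 of the 36 rose and 3 fell in the first of these comparisons, and 23 rose and 3 fell in the second.

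**Figure D1:**
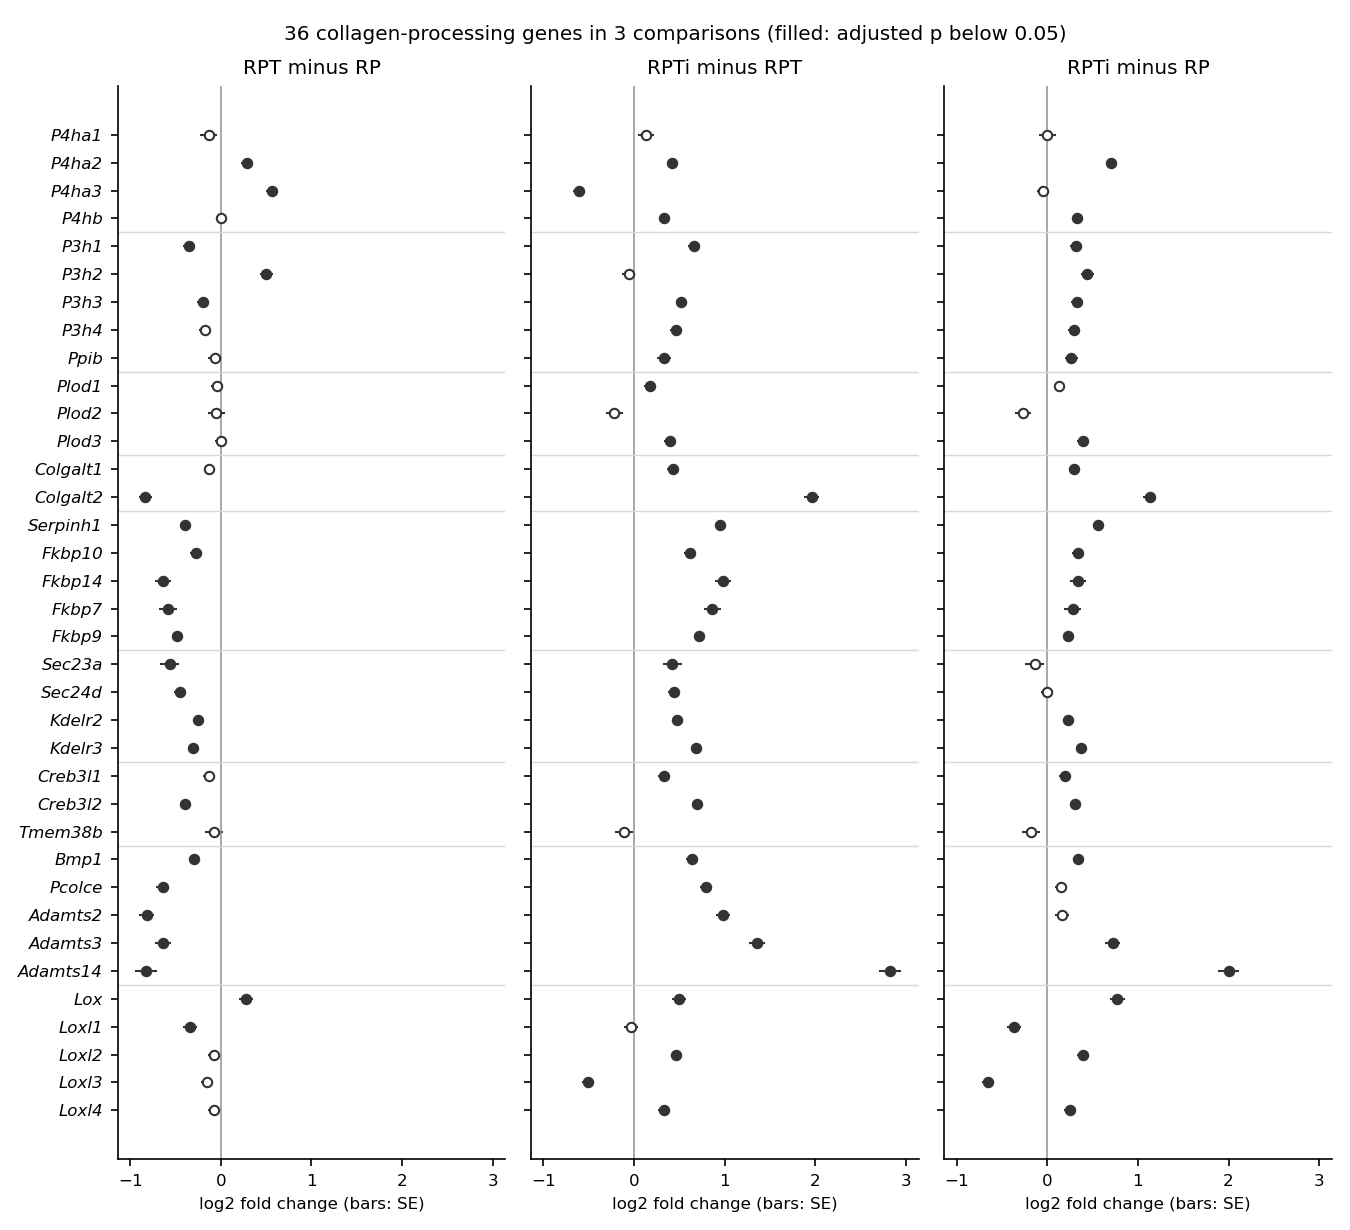
Fitted log2 fold change of each of the 36 genes (rows, grouped by role) in the 3 comparisons, with bars for the SE; filled points have an adjusted p below 0.05. Most points lie left of 0 for RPT minus RP and right of 0 for RPTi minus RPT, and Adamts14 lies farthest right at 2.82.

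All 5 genes grouped as chaperones and isomerases fell with thrombin and were higher with the inhibitor. Serpinh1 (ENSRNOG00000016831) encodes HSP47, which binds the folded procollagen helix in the ER. It was at 5259, 5210 and 5116 CPM (counts scaled to library size with TMM factors) in RPTi, at 2590, 2807 and 2669 CPM in RPT and at 3580, 3636 and 3363 CPM in RP. No library of one group overlapped another group, with RPTi highest and RPT lowest. The log2 fold change was -0.39 (SE 0.05, adjusted p = 7.42e-05) for RPT against RP, 0.95 (SE 0.05, adjusted p = 1.31e-08) for RPTi against RPT and 0.56 (SE 0.05, adjusted p = 5.19e-06) for RPTi against RP.

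Fkbp10, which encodes the isomerase FKBP65 and is needed for normal hydroxylation of lysines in the collagen ends, was at 1125, 1089 and 1089 CPM in RPTi, 706.5, 785 and 665 CPM in RPT and 878, 916 and 820 CPM in RP. It fell with thrombin by 0.28 on the log2 scale (SE 0.07, adjusted p = 0.00703) and was 0.61 higher with the inhibitor (SE 0.07, adjusted p = 8.83e-06). Fkbp14 encodes FKBP22, an ER isomerase that acts on collagens such as type III, and had 99.7, 89.7 and 96.9 CPM in RPTi, 44.8, 44.6 and 55.8 CPM in RPT and 76.8, 71.1 and 78.1 CPM in RP. The groups were again apart in the same order, with folds of 1.56 down for RPT against RP (adjusted p = 0.000175) and 1.97 up for RPTi against RPT (adjusted p = 2.07e-06).

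Fkbp7 and Fkbp9 encode related ER isomerases. Fkbp9 was at 926.5, 865 and 905 CPM in RPTi, 527, 543 and 573.5 CPM in RPT and 751, 765 and 777 CPM in RP, a fall of 0.48 with thrombin (SE 0.05, adjusted p = 2.23e-05) and a rise of 0.71 with the inhibitor (SE 0.05, adjusted p = 2.95e-07). Fkbp7 was at 29.1, 28.7 and 29.6 CPM in RPTi, 16.3, 13.6 and 18.0 CPM in RPT and 24.1, 22.8 and 25.01 CPM in RP, with a log2 fold change of -0.58 for RPT against RP (SE 0.10, adjusted p = 0.000582) and 0.86 for RPTi against RPT (SE 0.10, adjusted p = 1.16e-05). In both genes the 3 groups did not overlap, with RPTi highest and RPT lowest. All 5 genes of this class were also higher in RPTi than in RP, by 0.23 (Fkbp9) to 0.56 (Serpinh1). For Fkbp7 that last call was marginal (0.28, adjusted p = 0.0445): it was lost without any one of RP replicates 1, 2 or 3, RPT replicate 1 or RPTi replicates 1, 2 or 3 (0.24 to 0.31), and with library totals (0.23). Fkbp14 did not pass there without RPTi replicate 1 (0.31, adjusted p = 0.0642).

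**Figure D2:**
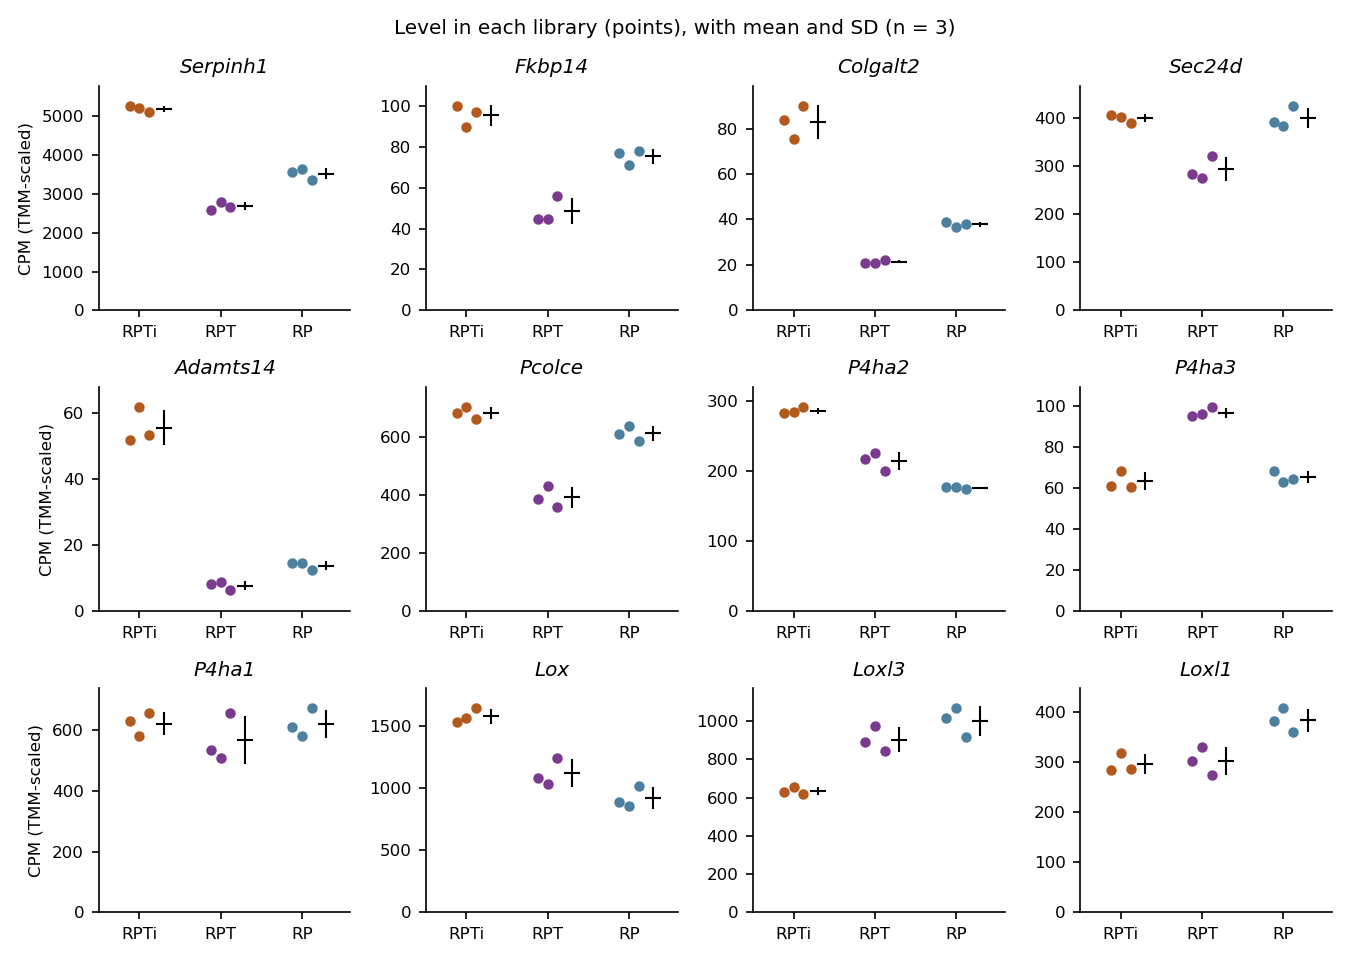
TMM-scaled CPM of 12 genes in each library (points) with mean and SD (black, n = 3), in RPTi, RPT and RP. Serpinh1, Fkbp14, Colgalt2, Adamts14 and Pcolce are lowest in RPT and highest in RPTi, P4ha3 is highest in RPT, and Loxl3 is lowest in RPTi.

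The 4 genes grouped here under export and retrieval all fell with thrombin and all rose with the inhibitor against RPT. This was not so for the wider lists of these steps, described further below. Of 16 other COPII and ER exit genes, 3 fell with thrombin and 9 rose with the inhibitor against RPT. Of 11 COPI, cargo receptor and retrieval genes, 4 fell and 6 rose in the same comparisons. Sec23a and Sec24d encode the inner COPII coat, and loss of Sec23a function in humans gives a skeletal disorder. Sec24d was at 406, 400.4 and 390 CPM in RPTi, 283, 274 and 321 CPM in RPT and 392, 383 and 423 CPM in RP. RPT lay below the other groups, which overlapped each other, and the log2 fold change was -0.45 for RPT against RP (SE 0.07, adjusted p = 0.000278), 0.45 for RPTi against RPT (SE 0.07, adjusted p = 0.000157) and -0.00 for RPTi against RP (SE 0.07, adjusted p = 0.984).

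Sec23a was also lowest in RPT, with wider spread, at 175, 173 and 182 CPM in RPTi, 122, 117 and 158 CPM in RPT and 197, 175 and 213 CPM in RP. It fell by 0.56 with thrombin (SE 0.10, adjusted p = 0.00143) and was 0.42 higher with the inhibitor (SE 0.10, adjusted p = 0.00569). Kdelr2 and Kdelr3 encode receptors that return escaped ER proteins, HSP47 among them, from the Golgi. Kdelr3 was at 276, 289 and 269 CPM in RPTi, 171, 179 and 168 CPM in RPT and 214, 221 and 208 CPM in RP. In this gene the 3 groups were separate, with -0.31 for RPT against RP (SE 0.05, adjusted p = 0.00104), 0.69 for RPTi against RPT (SE 0.05, adjusted p = 6.02e-07) and 0.38 for RPTi against RP (SE 0.05, adjusted p = 0.000297). For Kdelr2 the changes were -0.25, 0.48 and 0.23 in the same 3 comparisons, and each passed.

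Creb3l2 and Creb3l1 encode the related ER transcription factors BBF2H7 and OASIS. Creb3l2 was at 371, 359 and 375 CPM in RPTi, 230.2, 229 and 223 CPM in RPT and 301, 299 and 294 CPM in RP. Every group was separate, at -0.39 for RPT against RP (SE 0.05, adjusted p = 7.69e-05) and 0.69 for RPTi against RPT (SE 0.05, adjusted p = 2.05e-07). Creb3l1, which drives collagen secretion in bone, averaged 212 CPM in RPTi, 169 CPM in RPT and 185 CPM in RP. It rose in RPTi against RPT (0.33, SE 0.07, adjusted p = 0.00156) but did not pass for RPT against RP (-0.13, SE 0.07, adjusted p = 0.157), where it passed without RPT replicate 2 (-0.20, adjusted p = 0.0257). Its rise in RPTi over RP (0.20, adjusted p = 0.0483) was lost without any one of RP replicates 1, 2 or 3, RPT replicate 1 or RPTi replicates 1, 2 or 3 (0.16 to 0.22). It was also lost with library totals (0.14) and with no filter (0.19). Tmem38b, the gene of an ER potassium channel that supports calcium release, ranged from 10.1 to 10.9 CPM in RPTi, 10.6 to 12.7 CPM in RPT and 11.1 to 13.2 CPM in RP and passed in no comparison.

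Outside the cell, the propeptide proteases and their enhancer fell with thrombin in 5 of 5 cases and were higher with the inhibitor in 5 of 5. Adamts14 (ENSRNOG00000000563), one of the enzymes that cut the amino-terminal propeptide, had the largest fold change of the 36 genes with the inhibitor. Its level was 51.8, 61.8 and 53.4 CPM in RPTi, 8.34, 8.79 and 6.404 CPM in RPT and 14.5, 14.7 and 12.4 CPM in RP. It was 7.08-fold higher in RPTi than in RPT (log2 fold change 2.82, SE 0.12, adjusted p = 3.49e-09), 4.01-fold higher in RPTi than in RP (adjusted p = 1.52e-07), and 1.77-fold lower in RPT than in RP (adjusted p = 0.000287).

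Adamts3, the N-proteinase with activity on type II procollagen, was at 20.7, 18.4 and 19.3 CPM in RPTi, 7.71, 7.24 and 7.84 CPM in RPT and 12.3, 11.7 and 11.5 CPM in RP. The 3 groups did not overlap, and the folds were 2.56 up for RPTi against RPT (adjusted p = 6.57e-08) and 1.56 down for RPT against RP (adjusted p = 0.000128). Adamts2, the main N-proteinase of skin, had 26.6, 26.0 and 26.4 CPM in RPTi, 13.1, 13.3 and 13.6 CPM in RPT and 21.2, 24.9 and 24.4 CPM in RP. It was 1.76-fold lower in RPT than in RP (adjusted p = 9.12e-06), and in RPTi it did not pass against RP (0.16, SE 0.08, adjusted p = 0.146).

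Summed over these 3 N-proteinase genes, the level was 18.9 to 20.2 FPKM in RPTi, 5.31 to 5.70 FPKM in RPT and 9.11 to 9.58 FPKM in RP. Adamts14 made up 56.5% ± 3.15 of that sum in RPTi, 29.2% ± 3.88 in RPT and 30.5% ± 2.25 in RP (SD, n = 3), so its share in RPT overlapped that in RP and its share in RPTi did not. Bmp1, which removes the carboxy-terminal propeptide and also activates lysyl oxidase, averaged 131 CPM in RPTi, 84.3 CPM in RPT and 103 CPM in RP. Its changes were -0.29 for RPT against RP (SE 0.06, adjusted p = 0.00223), 0.63 for RPTi against RPT (SE 0.06, adjusted p = 2.06e-06) and 0.34 for RPTi against RP (SE 0.06, adjusted p = 0.000922). Pcolce, the enhancer of that cut, was at 681, 701 and 659 CPM in RPTi, 385, 432 and 360 CPM in RPT and 611, 637 and 586 CPM in RP. It fell by 0.64 with thrombin (SE 0.07, adjusted p = 1.68e-05) and rose by 0.80 with the inhibitor (SE 0.07, adjusted p = 1.15e-06). Against RP it did not pass in RPTi (0.15, SE 0.07, adjusted p = 0.116), although the libraries did not overlap.

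The glycosyltransferases add galactose to hydroxylysine. Colgalt2 (ENSRNOG00000028207) was at 83.6, 75.3 and 89.7 CPM in RPTi, 21.0, 21.0 and 22.1 CPM in RPT and 39.1, 36.8 and 37.9 CPM in RP. All 3 groups were apart, with a 1.78-fold fall with thrombin (adjusted p = 5.58e-06) and a 3.89-fold rise with the inhibitor (adjusted p = 1.62e-09). Colgalt1, the more abundant and widely expressed of the pair, averaged 389 CPM in RPTi, 289 CPM in RPT and 317 CPM in RP. It did not pass with thrombin (-0.13, SE 0.06, adjusted p = 0.12) and rose with the inhibitor (0.43, SE 0.06, adjusted p = 8.04e-05). On the FPKM scale Colgalt2 made up 25.5% ± 1.96 of the pair in RPTi, 10.6% ± 0.83 in RPT and 16.1% ± 0.852 in RP (SD, n = 3), with no overlap between the groups.

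P4ha1, P4ha2 and P4ha3 encode alternative catalytic subunits, and P4hb the shared subunit, protein disulfide isomerase. P4ha3 was at 61.2, 68.5 and 60.8 CPM in RPTi, 95.0, 95.9 and 99.4 CPM in RPT and 68.5, 63.1 and 64.6 CPM in RP. RPT was above both other groups, which overlapped, with 0.56 for RPT against RP (SE 0.07, adjusted p = 4.24e-05), -0.61 for RPTi against RPT (SE 0.07, adjusted p = 1.1e-05) and -0.04 for RPTi against RP (SE 0.07, adjusted p = 0.691).

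P4ha2 rose in every comparison. It had 284, 285 and 291 CPM in RPTi, 218, 226 and 199.9 CPM in RPT and 177, 177 and 174 CPM in RP, in 3 separate groups. The changes were 0.28 for RPT against RP (SE 0.06, adjusted p = 0.00237), 0.42 for RPTi against RPT (SE 0.06, adjusted p = 6.79e-05) and 0.70 for RPTi against RP (SE 0.06, adjusted p = 2.57e-06). The main subunit P4ha1 overlapped across all groups, at 629.5, 581 and 657 CPM in RPTi, 535, 509 and 658 CPM in RPT and 612, 582 and 672.5 CPM in RP, and passed in no comparison. Without RPT replicate 3 it passed for RPT against RP (-0.25, adjusted p = 0.0208) and for RPTi against RPT (0.25, adjusted p = 0.0146).

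P4hb did not pass with thrombin (0.00, SE 0.05, adjusted p = 0.985) and was higher in RPTi than in RPT (0.33, SE 0.05, adjusted p = 0.000117). Within the FPKM sum of the 3 catalytic subunits, P4ha1 held 65.2% ± 1.64 in RPTi, 64.4% ± 3.72 in RPT and 72.3% ± 1.58 in RP. P4ha2 held 26.2% ± 0.751 of it in RPTi, 21.5% ± 2.92 in RPT and 17.9% ± 1.09 in RP (SD, n = 3). The sum itself overlapped between groups, at 419 to 455 FPKM in RPTi, 396 to 459 FPKM in RPT and 386 to 434.5 FPKM in RP.

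Among the prolyl 3-hydroxylase genes, P3h1 and P3h2 went opposite ways with thrombin. P3h1 encodes the catalytic member of the complex with CRTAP and cyclophilin B that modifies single prolines and chaperones the helix. It was at 409, 404 and 409 CPM in RPTi, 259, 278 and 235 CPM in RPT and 336, 336.5 and 310.5 CPM in RP. The 3 groups were apart, at -0.35 for RPT against RP (SE 0.07, adjusted p = 0.00156) and 0.66 for RPTi against RPT (SE 0.07, adjusted p = 4.34e-06). P3h2 was at 41.2, 44.9 and 43.9 CPM in RPTi, 45.7, 42.4 and 47.5 CPM in RPT and 31.6, 32.5 and 31.6 CPM in RP. Both thrombin groups lay above plasma alone and overlapped each other, with 0.50 for RPT against RP (SE 0.07, adjusted p = 0.00015), 0.44 for RPTi against RP (SE 0.07, adjusted p = 0.000527) and -0.06 for RPTi against RPT (SE 0.07, adjusted p = 0.515).

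Ppib, the gene of cyclophilin B, averaged 338 CPM in RPTi, 269 CPM in RPT and 281 CPM in RP and did not pass with thrombin (-0.06, SE 0.07, adjusted p = 0.554). It rose with the inhibitor against RPT (0.33, adjusted p = 0.00267) and against RP (0.27, adjusted p = 0.0172), the second call being lost without RP replicate 3 (0.21), RPTi replicate 1 (0.26) or RPTi replicate 2 (0.24). P3h3 and P3h4, whose products act together on collagen lysines with LH1, were higher in RPTi than in RPT by 0.52 (SE 0.06) and 0.47 (SE 0.07), with adjusted p of 9.98e-05 or lower. With thrombin P3h3 fell by 0.20 (adjusted p = 0.0322), a call lost without RP replicate 1 (-0.20), RP replicate 2 (-0.16), RPT replicate 1 (-0.16) or RPT replicate 3 (-0.18). P3h4 did not pass with thrombin (-0.17, adjusted p = 0.0666), but did without RP replicate 3 (-0.21) or RPT replicate 2 (-0.24).

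None of the 3 lysyl hydroxylase genes passed with thrombin, with changes of -0.04 for Plod1, -0.05 for Plod2 and 0.00 for Plod3. Plod3, whose product also adds glucose to galactosyl-hydroxylysine, was at 260, 261 and 253 CPM in RPTi, 193, 217 and 178 CPM in RPT and 196, 201 and 191 CPM in RP. RPTi stood above both other groups, by 0.40 against RPT (SE 0.07, adjusted p = 0.000504) and 0.40 against RP (SE 0.07, adjusted p = 0.00111). Plod2, which hydroxylates lysines in the collagen ends, was at 390.5, 364 and 405 CPM in RPTi, 436, 394.5 and 517 CPM in RPT and 468, 425 and 502 CPM in RP.

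The RPTi values of Plod2 were below all of RP and overlapped RPT. It did not pass against RP (-0.27, SE 0.09, adjusted p = 0.0522) or against RPT (-0.22, SE 0.09, adjusted p = 0.0774). Against RP it passed with DESeq2 (-0.26, adjusted p = 0.0271), with library totals, with no filter or a 1 CPM filter, and when RP replicate 2 (-0.33), or replicate 2 or 3 of RPT (-0.27 for each), was left out. Against RPT it passed with library totals (-0.29) and without RPT replicate 2 (-0.30). With the replicate number added to the fit (replicate block), Plod2 passed against RP (-0.27, adjusted p = 0.00151) and against RPT (-0.21, adjusted p = 0.0036). Calls that other genes gained under that block are given in the closing section on processing. Plod1, which hydroxylates lysines of the helix, averaged 416 CPM in RPTi, 369 CPM in RPT and 379 CPM in RP. Its call in RPTi against RPT lay at the threshold (0.17, SE 0.06, adjusted p = 0.0461). That call was lost with DESeq2 size factors (0.17), library totals (0.10) or no filter (0.17), and without RP replicates 1 or 2, RPT replicates 1 or 3, or any RPTi replicate (0.12 to 0.18). By FPKM, Plod2 took 30.9% ± 1.24 of the 3 genes in RPTi, 38.4% ± 5.24 in RPT and 38.8% ± 2.96 in RP, and Plod3 took 27.6% ± 0.79 in RPTi, 22.4% ± 2.18 in RPT and 21.8% ± 0.709 in RP (SD, n = 3).

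Lysyl oxidases oxidise lysine and hydroxylysine so that collagen molecules can be joined. Lox (ENSRNOG00000014426), the enzyme that gives the family its name, was at 1531, 1562 and 1643 CPM in RPTi, 1084, 1031 and 1247 CPM in RPT and 893, 855 and 1020 CPM in RP. The 3 groups did not overlap, though RPT replicate 2 and RP replicate 3 were close. Lox rose by 0.28 in RPT against RP (SE 0.08, adjusted p = 0.0187), by 0.49 in RPTi against RPT (SE 0.08, adjusted p = 0.000286) and by 0.77 in RPTi against RP (SE 0.08, adjusted p = 1.84e-05). The first of these calls was lost without RP replicate 1 (0.26), RP replicate 2 (0.22) or RPT replicate 3 (0.20).

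Loxl3, a family member with scavenger receptor domains, was lowest with the inhibitor. It was at 629.5, 655 and 618 CPM in RPTi, 890.3, 973 and 843 CPM in RPT and 1018, 1066 and 916 CPM in RP. RPTi was below both other groups, which overlapped, with -0.51 for RPTi against RPT (SE 0.07, adjusted p = 6.78e-05) and -0.66 for RPTi against RP (SE 0.07, adjusted p = 2.04e-05). RPT against RP did not pass (-0.15, SE 0.07, adjusted p = 0.126), but did without RP replicate 3 (-0.21) or RPT replicate 2 (-0.21). Loxl1, best known for elastic fibres, was at 284, 318 and 286 CPM in RPTi, 303, 329 and 275 CPM in RPT and 382.5, 407 and 359.5 CPM in RP. Both thrombin groups lay below plasma alone, by 0.34 in RPT (SE 0.08, adjusted p = 0.00494) and 0.37 in RPTi (SE 0.08, adjusted p = 0.00356), and they overlapped each other (-0.03, SE 0.08, adjusted p = 0.779).

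Loxl2 and Loxl4 did not pass with thrombin (-0.08 for each) and were higher with the inhibitor. Loxl2 rose in RPTi by 0.47 against RPT (SE 0.06, adjusted p = 3.15e-05) and 0.39 against RP (SE 0.06, adjusted p = 0.000359). Loxl4 rose in RPTi by 0.33 against RPT (SE 0.06, adjusted p = 0.00131) and 0.25 against RP (SE 0.06, adjusted p = 0.0131). The call against RP was lost without RP replicate 1 (0.22) or RPTi replicate 3 (0.22). The summed FPKM of the 5 genes moved little, at 1060 to 1116 in RPTi, 994 to 1026 in RPT and 1024 to 1041 in RP. Its make-up differed more: Lox held 29.3% ± 0.501 of the sum in RPTi, 23.6% ± 1.96 in RPT and 18.7% ± 1.78 in RP, while Loxl3 held 17.7% ± 0.722 in RPTi, 28.6% ± 2.42 in RPT and 30.5% ± 2.28 in RP (SD, n = 3).

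**Figure D3:**
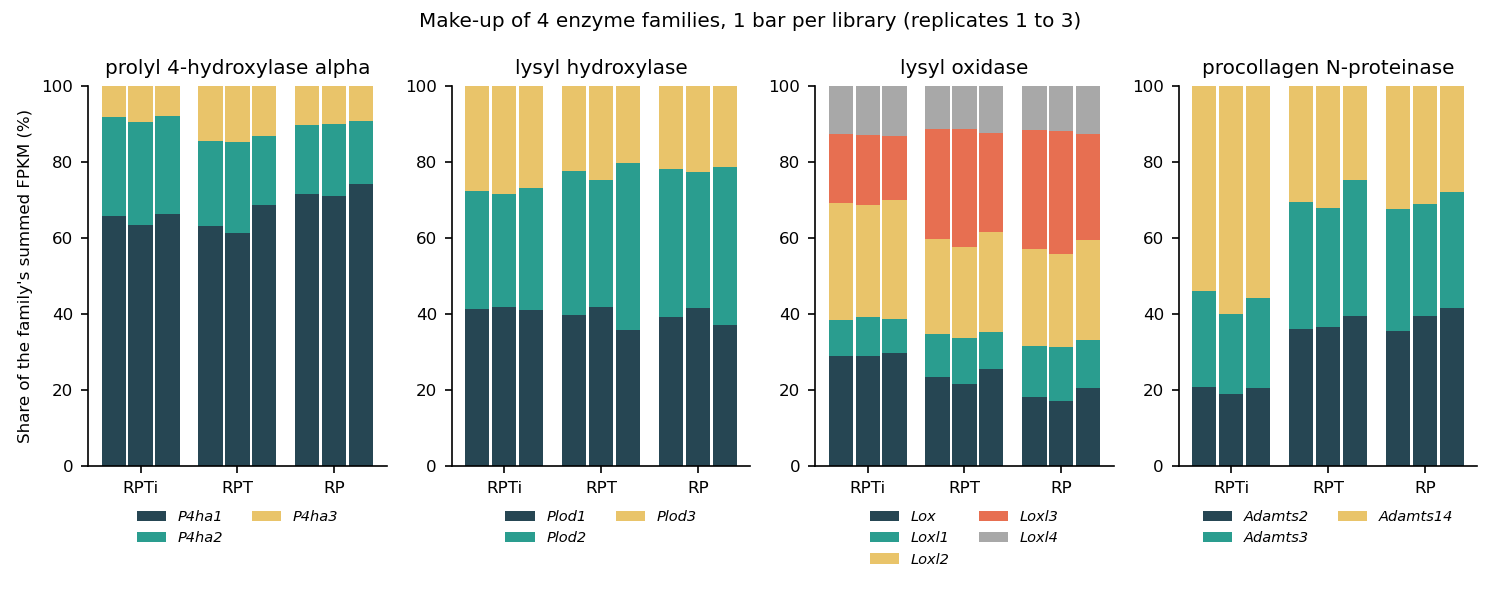
Share of the summed FPKM of each enzyme family (y axis, percent) taken by each gene, with 1 bar per library in RPTi, RPT and RP. Adamts14 rises to 56.5% of the N-proteinases in RPTi on average, and Lox takes 29.3% and Loxl3 17.7% of the lysyl oxidases there.

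The substrates of these enzymes are the collagen chains. Of 17 tested fibrillar, fibril-associated and type VI collagen genes, 13 fell and 2 rose with thrombin, with a median log2 fold change of -0.54. Of all tested genes 15.2% fell and 13.6% rose, and the 2 rises lay near the latter share. Neither rise was called without RP replicate 1, RP replicate 3 or RPT replicate 2 (0 called). With the inhibitor 13 rose and 1 fell against RPT (median 0.94), and 11 rose and 1 fell against RP (median 0.35). The shares of all tested genes were 20.4% rising and 21.1% falling against RPT, and 11.9% and 12.3% against RP. Col27a1 and Col14a1 had the smallest p, at -1.25 and -1.26 for RPT against RP and 1.70 and 1.65 for RPTi against RPT (adjusted p of 4.85e-08 or lower). Col2a1 fell by 0.69 with thrombin (SE 0.05, adjusted p = 1.51e-06) and Col1a1 by 0.87 (SE 0.07, adjusted p = 1.06e-06), while Col3a1 fell by 0.54 (SE 0.05, adjusted p = 5.38e-06).

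The 36 genes summed to 7994, 7972 and 7972 FPKM in RPTi, 5667, 5884 and 5729 FPKM in RPT and 6658, 6713 and 6542 FPKM in RP. The 9 chains of collagens I, II, III, V and XI summed to 14390, 13880 and 14340 FPKM in RPTi, 6964, 7246 and 6812 FPKM in RPT and 10890, 10970 and 10650 FPKM in RP. Per 100 FPKM of these chains, the 36 genes stood at 55.6, 57.4 and 55.6 FPKM in RPTi, 81.4, 81.2 and 84.1 FPKM in RPT and 61.1, 61.2 and 61.4 FPKM in RP. The ratio was highest in RPT and lowest in RPTi, with no overlap between groups. Without Serpinh1 the order was the same, at 39.2 in RPTi, 63.5 in RPT and 45.6 in RP on average. Col2a1 made up 61.2% to 62.8% of the chain sum in RPTi, 49.4% to 53.5% in RPT and 52.5% to 54.3% in RP. Without Col2a1 the ratio was still highest in RPT, but RPTi and RP changed places: it was 149, 148 and 147 in RPTi, 173, 175 and 166 in RPT and 131, 134 and 129 in RP. Taken gene by gene, with Col2a1 included, most of the 36 also stood above both other groups in RPT. Colgalt2 was instead lowest in RPT and highest in RPTi. Adamts3 and Adamts14 were highest in RPTi and overlapped between RPT and RP. Fkbp7, Fkbp14, Sec23a, Sec24d, Pcolce and Adamts2 also overlapped between RPT and RP. Serpinh1, P4ha2 and Lox were higher in RPTi than in RP. These ratios are descriptions with no test, and both ways of leaving out a gene were chosen after the data had been seen.

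**Figure D4:**
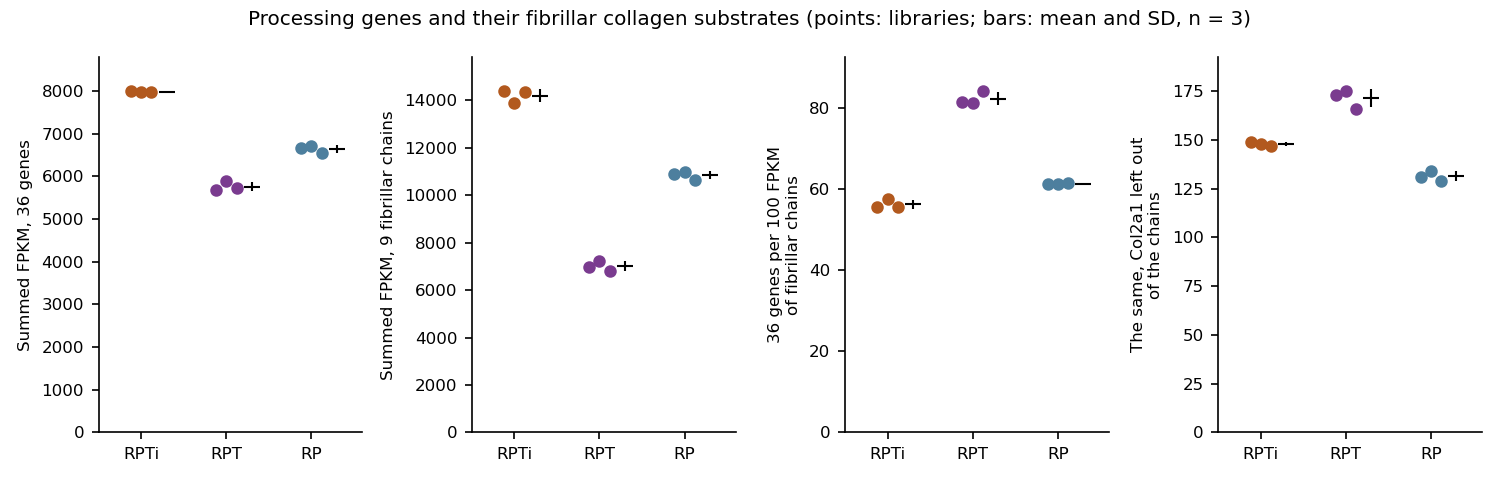
From left to right, summed FPKM of the 36 genes, summed FPKM of the 9 fibrillar chains, their ratio per 100, and the ratio without Col2a1, for each library (points) with mean and SD (n = 3). RPT has the lowest sums and the highest ratios, at 81.2 to 84.1 with Col2a1 included.

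The shares of all tested genes that passed, given above, apply to the smaller lists that follow, and some of their counts lie near those shares. Of 16 general ER folding genes tested, 4 fell and 1 rose with thrombin, 6 rose and 1 fell with the inhibitor against RPT, and 5 rose against RP. The 4 falls became 1 without RP replicate 1 or RPT replicate 1, 2 without RP replicate 3 or RPT replicate 2, and 9 without RPT replicate 3. Calr, a chaperone of glycoproteins, fell by 0.29 with thrombin (SE 0.05, adjusted p = 0.00141). Ero1a, an oxidase that recharges protein disulfide isomerase, rose by 0.30 (SE 0.08, adjusted p = 0.014), a call lost without RP replicate 1 (0.27). With the inhibitor Hyou1, a large ER chaperone, rose by 0.52 against RPT (SE 0.05, adjusted p = 5.69e-06) and Ero1a fell by 0.47 (SE 0.08, adjusted p = 0.000571). The 6 rises against RPT became 10 without RPT replicate 3. The 5 rises against RP became 3 without RP replicate 1, RP replicate 3 or RPTi replicate 1, and 2 without RPTi replicate 2 or with library totals.

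Of 16 other COPII and ER exit genes, 3 fell with thrombin, 9 rose with the inhibitor against RPT and 4 rose against RP. The 3 thrombin falls were close to the 15.2% of all tested genes that fell and are no result about the list. These falls (Sec16a at -0.19, Scfd1 at -0.38 and Sec31a at -0.19) became 1 without RP replicate 1 and 7 without RPT replicate 3. Each of these genes lost its call in at least 1 such fit: Sec16a without RP replicate 1, Scfd1 without RP replicate 3 or RPT replicate 2, and Sec31a without replicate 1 or 2 of RP or replicate 1 or 3 of RPT. Sec13, an outer coat subunit, had the smallest p with the inhibitor against RPT (0.39, SE 0.06, adjusted p = 0.000159). The 4 rises against RP became 1 or 2 without any one of the 3 RP libraries, the 3 RPTi libraries or RPT replicate 1, and 2 with library totals.

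Of 11 COPI, cargo receptor and retrieval genes, 4 fell with thrombin, 6 rose with the inhibitor against RPT and 4 rose against RP. The 4 thrombin falls became 2 without RP replicate 1 or 2 and 1 without RPT replicate 1. Lman1, a cargo receptor, was at -0.36 with thrombin (SE 0.09, adjusted p = 0.0119), a call lost without RPT replicate 1 (-0.32). With the inhibitor it was 0.46 higher than in RPT (SE 0.09, adjusted p = 0.00174), and Kdelr1, another retrieval receptor, was 0.44 higher (SE 0.07, adjusted p = 0.000287). The 4 rises against RP became 1 without RP replicate 1 or 3 or RPTi replicate 1 or 2, and 2 with library totals.

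A further list held genes of proline, ascorbate and copper supply, measured here as RNA alone. Slc23a2, a transporter of ascorbate, which prolyl and lysyl hydroxylases need, was at 46.6 ± 0.337 CPM in RPTi, 85.6 ± 6.67 CPM in RPT and 46.5 ± 0.939 CPM in RP (SD, n = 3). It rose 1.84-fold with thrombin (adjusted p = 1.34e-06) and fell 1.84-fold with the inhibitor (adjusted p = 4.76e-07). Atp7a, the pump that loads copper into lysyl oxidases, averaged 45.6 CPM in RPTi, 33.5 CPM in RPT and 51.8 CPM in RP, a fall of 0.63 with thrombin (SE 0.09, adjusted p = 0.000198). Pycr1, which makes proline in mitochondria, was 1.94-fold higher in RPTi than in RPT (adjusted p = 4.25e-07) and did not pass with thrombin (-0.13, SE 0.07, adjusted p = 0.209). Of the 11 tested genes of this list, 2 rose and 2 fell with thrombin, 4 rose and 1 fell with the inhibitor against RPT, and 3 rose against RP. The thrombin counts were near the 13.6% of all tested genes that rose and the 15.2% that fell. The 3 rises against RP became 5 without RPT replicate 2.

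Regulators of fibril assembly fell in 7 and rose in 2 of 13 cases with thrombin, and rose in 7 and fell in 2 with the inhibitor against RPT. The 2 thrombin rises became 1 without RP replicate 2 or RPT replicate 3. Fmod, the collagen-binding proteoglycan fibromodulin, was at 2000 ± 106 CPM in RPTi, 672 ± 33.9 CPM in RPT and 1061 ± 22.7 CPM in RP (SD, n = 3). It fell by 0.66 with thrombin (SE 0.06, adjusted p = 3.23e-06) and rose by 1.57 with the inhibitor (SE 0.06, adjusted p = 9.17e-10), with no overlap between groups. Of 4 further propeptide protease and convertase genes, 1 rose and 1 fell with thrombin, 3 rose with the inhibitor against RPT, and 4 rose against RP, the last count being 2 without RPTi replicate 1. Pcsk5, a proprotein convertase, rose by 0.44 with thrombin (SE 0.07, adjusted p = 0.000758), averaging 39.1 CPM in RPTi, 43.0 CPM in RPT and 31.7 CPM in RP. Tll1, a relative of Bmp1, fell by 1.03 with thrombin (SE 0.17, adjusted p = 0.000591) and was scarce, averaging 7.41 CPM in RPTi, 2.47 CPM in RPT and 5.04 CPM in RP.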

How the data were processed

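RNA-seq of 9 libraries (3 RPTi, 3 RPT, 3 RP) was analysed from 1 deposited table of read counts and FPKM per Ensembl rat gene on build Rnor_6.0. Per the submitters' processing notes, HISAT2, HTSeq 0.11.2 and DESeq2 1.26.0 were used, with no roles given. The counts were used as deposited by the authors, and the FPKM deposited by the authors served for levels between genes and for untested sums, shares and ratios by group. No source used here gives the strand setting or annotation release, so reads of overlapping or antisense genes are uncertain. Groups and replicate numbers came from the titles. Genes were kept by filterByExpr (minimum count 10, minimum total 15), which removed 0.0259% of counts. TMM scaling and the quasi-likelihood test of edgeR 4.0.16 (R 4.3.3) were fitted to all 9 libraries, with Benjamini-Hochberg adjustment over 13856 genes. "Rose" and "fell" mean an adjusted p below 0.05. SE is the absolute log2 fold change divided by the square root of F. The procedure was tested on simulated data.

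Alternatives, extended to the other lists after the data had been seen, were DESeq2 size factors, library totals, no filter, at least 1 CPM in 3 libraries, DESeq2 1.42.0, a replicate block and leaving out each library. By rule, values in every library were given for about 25 members that passed in at least 1 comparison, those with the largest changes in each role and a mean of at least 5 CPM, while for each other list fold changes or group means were given for up to 4 genes with the smallest p and for 4 main collagen chains. P4ha1 and Plod2, which passed in no comparison, were added after their values were seen. The members and lists were chosen with earlier results of these data known. Promoters came from RefSeq (GRCr8), another build than that of the counts.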

Additional observations from a re-analysis of the deposited data

How the results depend on the processing

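No count of the 36 genes or of all genes that passed moved by over 1.5 times under the 6 alternative settings or when 1 library was left out. For RPT against RP, the falling genes of the 36 numbered 18 to 22 with 1 library left out and the rising ones 3 to 4. For RPTi against RPT the rising ones numbered 28 to 29 and the falling ones 2 to 3, and for RPTi against RP 21 to 25 and 2 to 3. No change that passed for a gene of the 36 or of the other pathway lists turned its sign under these alternatives. With a replicate block 23 of the 36 fell and 4 rose for RPT against RP, 30 rose and 3 fell for RPTi against RPT, and 27 rose and 3 fell for RPTi against RP, although the numbers were not taken to pair the libraries. Same-numbered libraries of different groups correlated at -0.114 to 0.124 in their deviations from group means, and differently numbered ones at -0.161 to 0.143. The same-numbered values were all positive for replicates 2 and 3 (0.0222 to 0.124). For replicate 1 they were all negative (-0.114 to -0.0343), and RP replicate 1 did not correlate best with its own number. RP replicate 3 also correlated more with RPT replicate 1 (0.143) than with RPT replicate 3 (0.0222). Whether the numbers pair the libraries was not tested. Under the block, calls were gained by P4ha1, P3h4, Colgalt1 and Loxl3 for RPT against RP (adjusted p of 0.0418, 0.0102, 0.02 and 0.0131), by P4ha1 (0.03) and Plod2 (-0.21, 0.0036) for RPTi against RPT, and by Plod1 (0.0388), Plod2 (-0.27, 0.00151) and Pcolce (0.0146) for RPTi against RP. Calls of all genes under the block numbered 2514 rising and 2560 falling for RPT against RP, against 1886 and 2113 without it. The calls of the 36 genes that hung on 1 library or on another setting than the block are given beside their genes, and the causes were not tested. Counts of calls in the smaller lists varied more than those of the 36 genes, and replicate block values were larger in some of these lists. Under the block, 8 general ER folding genes, 8 COPII genes and 8 COPI and retrieval genes fell with thrombin.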

Other observations

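Col1a2, the partner chain of Col1a1 in type I collagen, was far below it and spread widely within each group. It was at 19.4, 36.1 and 19.4 FPKM in RPTi, 13.5, 11.6 and 37.0 FPKM in RPT and 47.7, 16.3 and 24.9 FPKM in RP, while Col1a1 averaged 2096 FPKM in RPTi, 1151 FPKM in RPT and 2083 FPKM in RP. Col1a2 passed in no comparison (-0.53, SE 0.44, for RPT against RP), except that without RPT replicate 3 it fell with thrombin (-1.26, adjusted p = 0.0339). Col5a3, a chain of type V collagen, fell in all 3 comparisons. The falls were 0.33 for RPT against RP, 0.75 for RPTi against RPT and 1.08 for RPTi against RP.

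Replicate 3 differed from replicate 2 in the same sense in RPT and RP for 33 of the 36 genes (91.7%), and in all 3 groups for 26 (72.2%). Over all 13856 tested genes the shares were 70.5% and 50.2%. Replicate 2 against replicate 1 gave 31 and 20 of the 36 genes (86.1% and 55.6%), beside 62.5% and 39.8% of all tested genes. Replicate 3 against replicate 1 gave 26 and 15 (72.2% and 41.7%), beside 58.3% and 33.5% of all tested genes. The ratio of replicate 3 to replicate 2 was 1.35 in RPT and 1.22 in RP for Sec23a, 1.31 in RPT and 1.18 in RP for Plod2, 1.29 in RPT and 1.16 in RP for P4ha1, and 1.21 in RPT and 1.19 in RP for Lox. It was 0.835 in RPT and 0.883 in RP for Loxl1, and 0.728 in RPT and 0.842 in RP for Adamts14. These genes were named after their values were seen, and what the ratios reflect was not tested.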
